A study of Homo sapiens with 2 samples.

Results

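Genes that move, tether and store cholesterol inside the cell were examined in U87 cells given the liver X receptor (LXR) agonist LXR623. U87 is a long-established line from a human glioblastoma. A set of 10 genes was taken by symbol from the table of array values, and all 10 had a probe set of their own among the 22458 named genes. The LXR623 sample was U87 cells that had received 20 µM of the agonist over 24 h, and the DMSO sample was U87 cells given 0.1% DMSO, the solvent, for the same time. Medium with 1.5% serum is stated for the treatment. Each condition was measured on 1 array (n = 1), so no value below has a replicate check, a standard error or a test, and every difference describes these 2 arrays. Differences are LXR623 minus DMSO in log2 units of RMA expression, a background-corrected and quantile-normalised array signal.

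The label on cell culture names HCT116, a colon carcinoma line, while every other label names U87, so markers of both were read. The 5 mesenchymal glioma markers with a probe set (VIM, FN1, CD44, TNC and SPARC) ranged over 9.88 to 12.5 log2 with LXR623 and 9.85 to 12.1 with DMSO. The 10 colon epithelial markers, EPCAM and CDH1 among them, ranged over 3.48 to 5.76 with LXR623 and 3.25 to 6.0 with DMSO. The array medians were 4.92 with LXR623 and 4.88 with DMSO. Probe sets differ in their probes, so levels of different genes are not on a common scale. The results below are differences within a gene. Level serves only as a rough guide, to filter or flag dim genes and to pick genes of like level.

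Cholesterol taken up with lipoproteins reaches the lysosome as an ester. LIPA frees it, and NPC2 and NPC1 hand it to the lysosomal membrane. Carrier proteins then shuttle sterol between membranes, often where the endoplasmic reticulum (ER) touches another organelle, and the ER enzyme SOAT1 turns surplus cholesterol back into esters for storage in droplets. LXRs are nuclear receptors that respond to oxidised cholesterol, whereas SREBP-2 is a transcription factor switched on when ER cholesterol is low, and genes of this group have been tied to both in other cells: NPC1 and NPC2 to LXR in human macrophages, and STARD4, TMEM97 and NPC1 to SREBP-2.

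Of the 10 genes, 8 had a higher value in the LXR623 array and 2 a lower one, where 48.8% of all genes kept by a filter on dim probe sets were higher and 48.3% lower. The lower genes were CAV1 and TMEM97. With each array centred on its own median, which lowers every difference by 0.040, GRAMD1A changed sign and the split was 7 higher and 3 lower, where 43.5% of all kept genes were higher. CAV1 was the 1 gene past 1.5-fold (0.58 log2), and it was lower. No member was 1.5-fold higher. Among the 16902 named genes kept by the filter, 2.01% were at least 1.5-fold lower and 2.38% at least 1.5-fold higher. All 10 members passed that filter. The median difference of the members was 0.11, against 0 over all kept genes, and the members ranged from -0.66 to 0.31. With the arrays centred on their medians it was 0.065, against -0.040 over all kept genes, and the mean of the members as deposited was 0.052. The measurements were made on bulk RNA, in which a lower level in every cell and the loss of expression from some cells cannot be told apart.

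**Figure D1:**
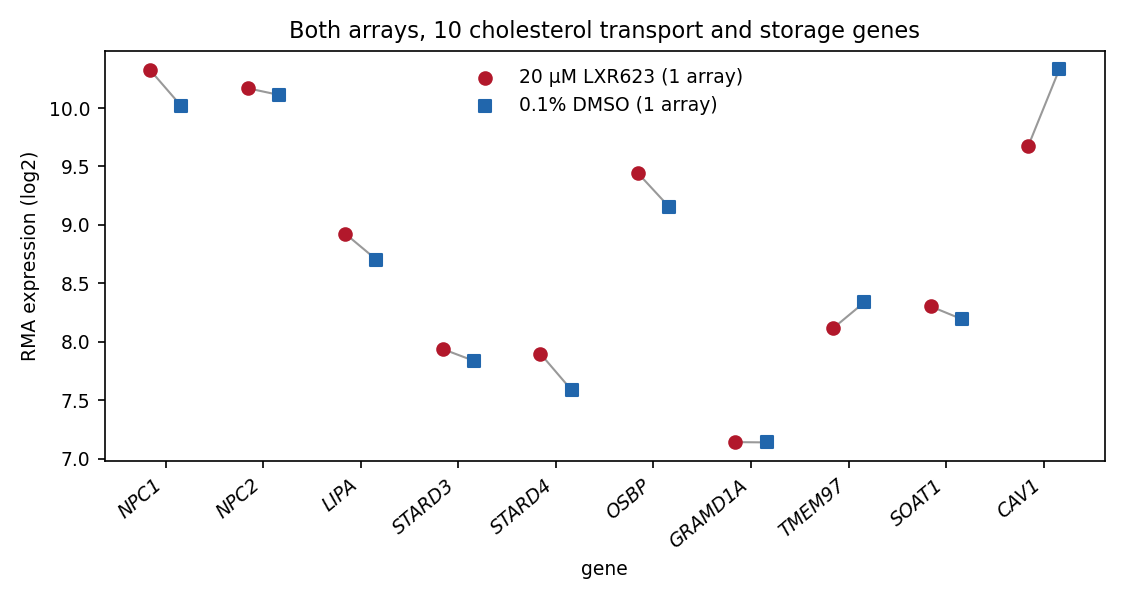
RMA expression (log2, vertical axis) of the 10 genes in the LXR623 array (circles) and the DMSO array (squares), 1 array each. CAV1, at 9.67 with LXR623 and 10.3 with DMSO, has the steepest line, and levels of different genes are not comparable with each other.

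To place the genes beside their regulatory sequence, the promoters in RefSeq (GRCh38.p14) were searched from 250 bases before to 50 after each start site. All 10 genes were matched by symbol, with 16 start sites in all. The promoters of STARD4, NPC1 and OSBP are shown because these were the 3 highest genes of the set, TMEM97 because it was lower while holding the same box as STARD4 and OSBP, and CAV1 because it was the gene past 1.5-fold. Each runs 5′ to 3′ along the gene over the 250 bases before the start site, and capitals mark the CCAAT box on either strand, the element bound by NF-Y, a factor that acts beside SREBPs at many sterol genes. The STARD4 stretch is chr5:111512536-111512785 on the minus strand, NPC1 chr18:23586507-23586756 on the minus strand, OSBP chr11:59615775-59616024 on the minus strand, TMEM97 chr17:28318950-28319199 on the plus strand, and CAV1 chr7:116524759-116525008 on the plus strand, the first of 3 start sites listed for CAV1.
STARD4: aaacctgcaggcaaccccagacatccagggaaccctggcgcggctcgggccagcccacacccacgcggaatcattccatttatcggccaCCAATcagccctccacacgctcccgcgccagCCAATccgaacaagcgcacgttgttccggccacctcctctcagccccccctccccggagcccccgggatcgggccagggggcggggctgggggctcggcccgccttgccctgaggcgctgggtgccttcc
NPC1: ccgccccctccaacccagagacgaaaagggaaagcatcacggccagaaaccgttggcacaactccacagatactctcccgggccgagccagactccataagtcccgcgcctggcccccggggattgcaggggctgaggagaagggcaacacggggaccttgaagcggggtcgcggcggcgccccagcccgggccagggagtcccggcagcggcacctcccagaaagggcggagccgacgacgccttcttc
OSBP: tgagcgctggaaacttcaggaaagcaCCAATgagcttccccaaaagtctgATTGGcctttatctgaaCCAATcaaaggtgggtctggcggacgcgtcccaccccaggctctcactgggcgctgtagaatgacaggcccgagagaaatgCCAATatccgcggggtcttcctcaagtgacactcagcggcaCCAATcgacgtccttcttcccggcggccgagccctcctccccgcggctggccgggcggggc
TMEM97: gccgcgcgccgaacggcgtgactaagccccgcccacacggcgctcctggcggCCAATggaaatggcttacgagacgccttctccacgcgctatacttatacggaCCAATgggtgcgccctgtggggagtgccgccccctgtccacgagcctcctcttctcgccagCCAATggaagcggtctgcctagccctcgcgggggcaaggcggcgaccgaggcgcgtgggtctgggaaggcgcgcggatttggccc
CAV1: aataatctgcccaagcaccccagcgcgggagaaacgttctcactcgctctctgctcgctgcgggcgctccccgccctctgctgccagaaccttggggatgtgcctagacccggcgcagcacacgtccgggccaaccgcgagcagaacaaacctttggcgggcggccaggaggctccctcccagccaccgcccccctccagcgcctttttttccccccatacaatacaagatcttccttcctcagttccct

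A CCAAT box lay in 7 of the 16 member windows (43.8%), against 34.6% of all 35116 RefSeq windows of the same length. OSBP, the window with the most boxes of the 16, held 5, their first bases at -224, -200, -183, -102 and -61 from the start site. At least 5 boxes were held by 1 of the 16 member windows (6.25%), against 0.359% of all windows. TMEM97 held 3, at -198, -146 and -85, and the middle start site of LIPA also held 3. At least 3 boxes were held by 3 of the 16 member windows (18.8%), against 3.26% of all windows. STARD4 held boxes at -161 and -130, and NPC2 at -144 and -114. SOAT1 had a box at -85, and no window of NPC1, STARD3, GRAMD1A or CAV1 held the box. Windows of neighbouring start sites of a gene can overlap, so they are not separate counts.

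Other elements searched on both strands were TCACNCCAC, a core of the sterol regulatory element, CACGTG, the E-box at the centre of the lysosomal CLEAR element bound by TFEB, and the LXR element DR4, which is AGGTCA repeated after a spacer of 4 bases. None of these letters occurred in the 16 member windows. They occurred in 1.13%, 7.26% and 0.0199% of all windows, in that order. The absence concerns these letters in these windows and says nothing of binding elsewhere.

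**Figure D2:**
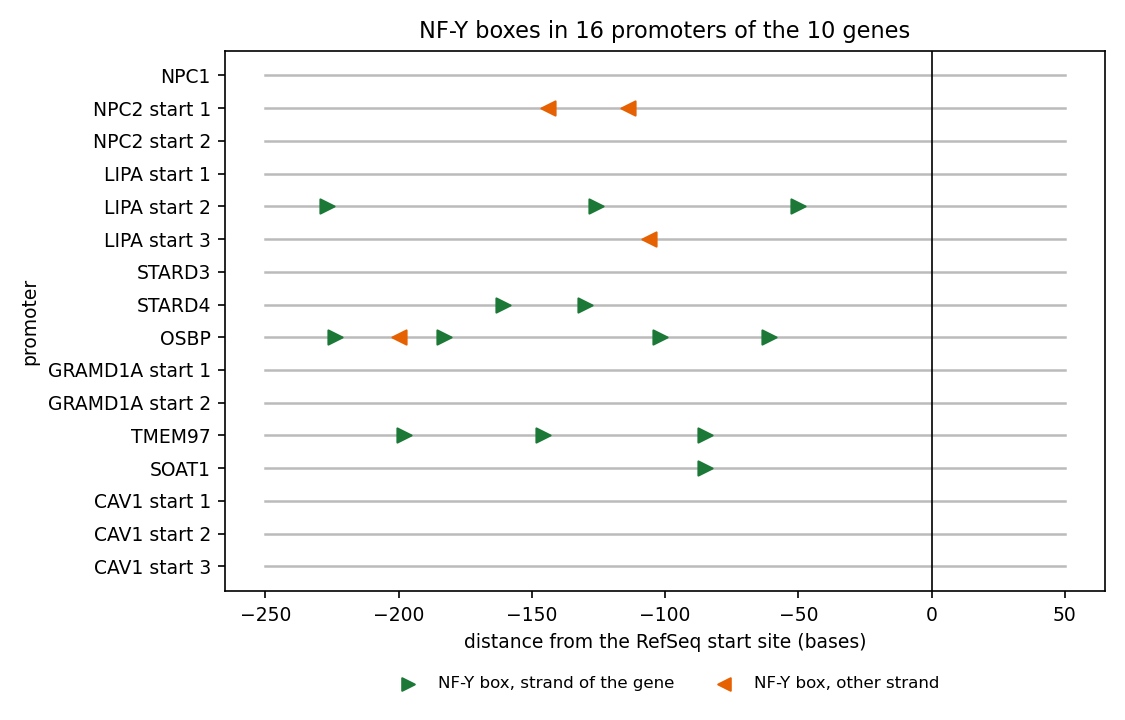
Position of each CCAAT box (NF-Y box) in the 16 RefSeq promoter windows of the 10 genes, as distance of its first base from the start site (bases, horizontal axis), with triangles pointing by strand. OSBP holds 5 boxes and TMEM97 holds 3, and the 3 CAV1 windows hold none.

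The lysosomal genes were all higher in the LXR623 array, each by less than 1.5-fold. NPC1, the membrane protein that carries cholesterol out of the lysosome, was at 10.3 log2 with LXR623 and 10.0 with DMSO, a difference of 0.31 (1.24-fold). Of the 500 kept genes nearest to NPC1 in mean level, 91.4% had a lower difference, and the central 95% of those 500 ran from -0.37 to 0.49, so NPC1 lay inside the scatter of genes of like level. LIPA, the acid lipase that cleaves cholesteryl esters, was at 8.92 with LXR623 and 8.70 with DMSO, a difference of 0.22, above 87.4% of genes near it in level. NPC2, the soluble lumenal partner that passes cholesterol to NPC1, was at 10.2 with LXR623 and 10.1 with DMSO. Its difference of 0.057 was the smallest of the 3 and lay in the body of its neighbours, above 65.2% of them.

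Among the carriers, STARD4 and OSBP were higher by about as much as NPC1. STARD4, a soluble START domain protein that ferries sterol through the cytosol, was at 7.90 log2 with LXR623 and 7.59 with DMSO. Its difference of 0.31 (1.24-fold) was the highest of the 10 genes and lay above 93% of the 500 genes near it in level. OSBP, which exchanges cholesterol for phosphatidylinositol 4-phosphate between the ER and the Golgi and whose promoter above held the most CCAAT boxes, was at 9.44 with LXR623 and 9.15 with DMSO, a difference of 0.29 that lay above 91.6% of its neighbours. These differences stayed inside the central 95% of genes of like level, which ran from -0.57 to 0.51 for STARD4 and from -0.42 to 0.55 for OSBP.

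The remaining carriers were nearly level. STARD3, a late endosomal START protein that tethers endosomes to the ER, was at 7.94 log2 with LXR623 and 7.84 with DMSO, a difference of 0.10. GRAMD1A (Aster-A), an ER protein that draws cholesterol from the plasma membrane, was at 7.14 in the LXR623 array and 7.14 in the DMSO array. Its difference of 0.0024 was -0.038 with the arrays centred on their medians and 0.034 after removal of a smooth trend on level, so it has no direction here.

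TMEM97, the sigma-2 receptor, binds NPC1 and lowers its amount. It was at 8.11 log2 with LXR623 and 8.34 with DMSO, a difference of -0.22 (1.17-fold lower), and 18% of genes near it in level were lower still. TMEM97 lay on the other side of 0 from NPC1 and STARD4. Its promoter above holds CCAAT boxes as that of STARD4 does, while that of NPC1 holds none. A link between the boxes and the differences was not tested for any member. SOAT1, the enzyme that makes cholesteryl esters in the ER, was at 8.30 with LXR623 and 8.19 with DMSO. Its difference was 0.11, above 78.6% of its neighbours in level.

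CAV1, the scaffold protein that binds cholesterol and shapes caveolae, small pits of the plasma membrane, stood apart from the other members. It was at 9.67 log2 with LXR623 and 10.3 with DMSO, a difference of -0.66 (1.58-fold lower). Only 0.2% of the 500 genes nearest in level had a lower difference, and their central 95% ran from -0.38 to 0.53. CAV1 was the 1 member outside that range, and the other 9 lay inside theirs. Its difference was -0.70 with the arrays centred on their medians and -0.66 after removal of the trend on level.

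**Figure D3:**
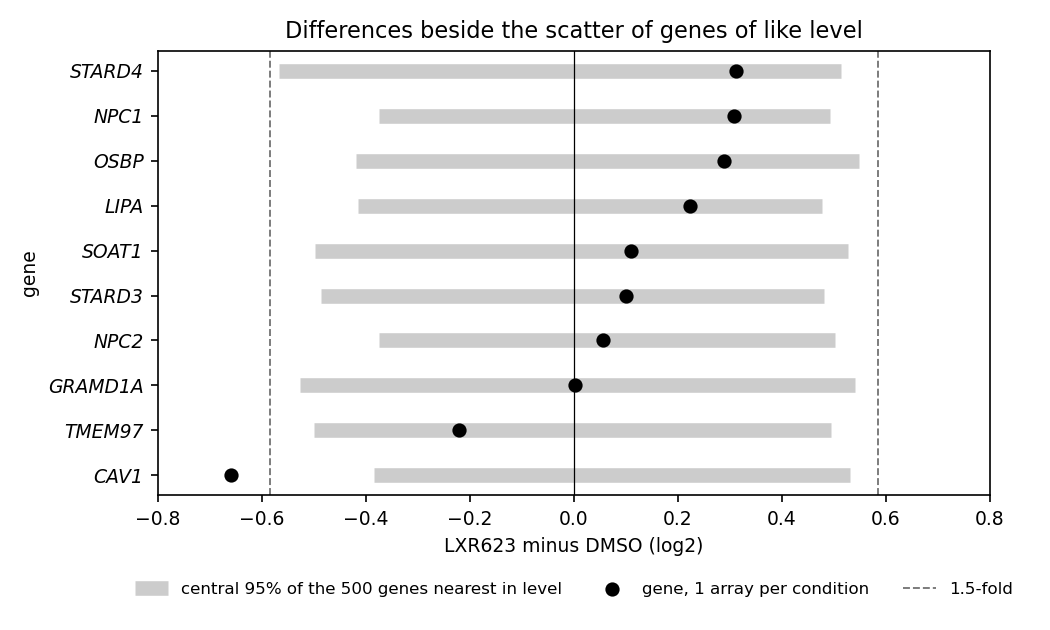
LXR623 minus DMSO (log2, horizontal axis) of the 10 genes, points, over the central 95% of the 500 kept genes nearest in mean level, grey bars, with dashed lines at 1.5-fold. CAV1 at -0.66 is the 1 point outside its bar, and STARD4 and NPC1 at 0.31 are the highest.

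**Figure D4:**
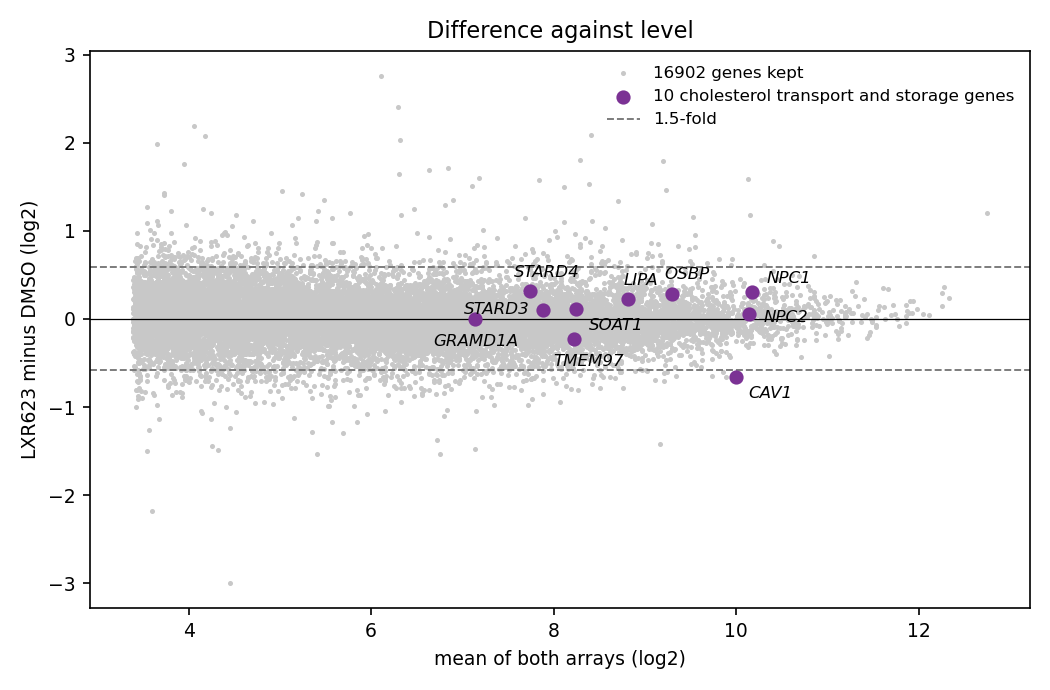
LXR623 minus DMSO (log2, vertical axis) against the mean of both arrays (log2, horizontal axis) for the 16902 kept genes, grey, and the 10 cholesterol transport and storage genes, purple, with dashed lines at 1.5-fold. CAV1 lies below the lower line and the other 9 members lie between both lines.

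For scale, 7 genes of LXR and SREBP signalling were read beside the members, and 5 of them were at least 1.5-fold higher. ABCA1, the LXR-induced pump that exports cholesterol, was at 10.1 log2 with LXR623 and 8.30 with DMSO, a difference of 1.79. INSIG1, which holds SREBPs in the ER, was at 10.7 with LXR623 and 9.56 with DMSO (1.18), HMGCS1, an early enzyme of cholesterol synthesis, at 7.84 with LXR623 and 6.91 with DMSO (0.92), and SQLE, a later enzyme, at 9.41 with LXR623 and 8.66 with DMSO (0.75). SREBF1, the gene of SREBP-1, a driver of fatty acid synthesis, was at 7.32 with LXR623 and 6.41 with DMSO (0.91). No member reached these differences in the same direction. SREBF2, which encodes SREBP-2, was at 7.68 with LXR623 and 7.36 with DMSO (0.32), a difference close to those of NPC1 and STARD4. The sterol exporter ABCG1, a dim gene, was at 4.14 with LXR623 and 3.75 with DMSO (0.38).

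Other genes of the pathway were then read by role, as 9 lists of 56 genes. Of these, 52 had a named probe set and 49 passed the level filter. At least 1.5-fold higher were 2 genes (4.08%, against 2.38% of all kept genes) and at least 1.5-fold lower were 0 (against 2.01%). The 49 had a median difference of -0.020, with 20 higher and 29 lower as deposited. After removal of the trend on level 23 were higher and 26 lower, and with the arrays centred on their medians 16 were higher and 33 lower, where 43.5% of all kept genes were higher. The 10 members thus had the higher median, 0.11, of the 2 groups.

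Both genes past 1.5-fold carry lipids other than cholesterol in a START domain, the fold that STARD3 and STARD4 use for sterol. CERT1, which takes ceramide from the ER to the Golgi, was at 8.85 log2 with LXR623 and 8.20 with DMSO, a difference of 0.65, above 98.4% of the 500 genes near it in level. STARD10, a phospholipid carrier, was at 5.73 with LXR623 and 5.01 with DMSO, a difference of 0.72, above 99% of its neighbours. Both STARD10 values lay inside the ranges of the colon epithelial markers given above. PCTP, the phosphatidylcholine carrier, was at 6.76 with LXR623 and 7.05 with DMSO (-0.29). The list had 6 kept members, 3 higher and 3 lower, with a median of 0.14. STAR, the mitochondrial cholesterol carrier of steroid-making cells, and STARD6 were below the level filter and are not counted. STAR was at 2.96 with LXR623 and 2.28 with DMSO (0.68, past 1.5-fold), and without the filter 3 pathway genes were at least 1.5-fold higher.

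The kin of OSBP were split in direction. Of the 11 other members of the oxysterol-binding protein family, 5 were higher and 6 lower, none by 1.5-fold, with a median of -0.018 that turned to 0.015 after removal of the trend on level. OSBPL10 was at 7.63 log2 with LXR623 and 7.99 with DMSO (-0.36), OSBP2 at 6.79 with LXR623 and 6.56 with DMSO (0.24) and OSBPL2 at 8.31 with LXR623 and 8.08 with DMSO (0.23). The relatives of GRAMD1A were also nearly level, with GRAMD1B at 6.27 in both arrays and GRAMD1C at 4.74 with LXR623 and 4.89 with DMSO (-0.15).

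At contact sites, OSBP and STARD3 dock on ER anchor proteins. The anchor VAPA was at 7.34 log2 with LXR623 and 7.63 with DMSO (-0.29), and MOSPD2, another such anchor, at 6.62 with LXR623 and 6.86 with DMSO (-0.24). PI4K2A, a kinase that makes phosphatidylinositol 4-phosphate, was at 9.54 with LXR623 and 9.35 with DMSO (0.20). Over the 7 genes of this list 2 were higher and 5 lower, none past 1.5-fold, with a median of -0.020.

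The list of lysosomal membrane and lipid partners, which also takes in RELCH of recycling endosomes, had 4 lower and 1 higher of 5 kept genes. Its median, the value of RELCH, was -0.17, against 0.22 for LIPA, NPC1 and NPC2. The lysosomal membrane protein LAMP2 was at 8.54 log2 with LXR623 and 8.81 with DMSO (-0.27), SCARB2, another such protein, at 9.08 with LXR623 and 9.30 with DMSO (-0.22), and RELCH, which acts with OSBP in sterol transfer, at 7.36 with LXR623 and 7.53 with DMSO (-0.17). None differed by 1.5-fold, and each lay inside the scatter of genes of like level. In the list built around TMEM97, 3 genes were kept. EBPL, which shares a membrane domain with TMEM97, was at 5.94 with LXR623 and 6.28 with DMSO (-0.34). The sterol isomerase EBP was at 8.76 with LXR623 and 8.80 with DMSO (-0.042), and TM6SF2, known from lipoprotein secretion in liver, at 4.91 with LXR623 and 4.89 with DMSO (0.015).

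Enzymes that make or cleave cholesteryl esters outside the lysosome were mixed. NCEH1, a neutral cholesteryl ester hydrolase that works against SOAT1, was at 8.24 log2 with LXR623 and 8.53 with DMSO (-0.30). LIPE, the hormone-sensitive lipase, was at 5.17 with LXR623 and 4.72 with DMSO (0.45). CES1, a carboxylesterase with a near-identical pseudogene and therefore uncertain, was at 4.29 with LXR623 and 3.98 with DMSO (0.31). None of the 4 genes in this list was past 1.5-fold.

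The other caveola genes were mostly lower beside CAV1, but less so, and several were dim or nearly level. Of 8 genes, 6 were lower and 2 higher as deposited, and the same split held after removal of the trend on level. Among the lower ones, CAV3 (-0.13) and CAVIN2 (-0.12) were dim genes, and CAVIN3 (-0.031) was nearly level. The higher ones, EHD2 (0.0043) and PACSIN2 (0.034), were nearly level too. With the arrays centred on their medians 8 were lower, where 43.5% of all kept genes were higher. The deposited median was -0.13, and none was past 1.5-fold or outside the scatter of genes of like level. CAV2, which forms hetero-oligomers with CAV1, was at 6.22 log2 with LXR623 and 6.66 with DMSO (-0.44). CAVIN4, a coat protein best known from muscle, was at 4.76 with LXR623 and 5.21 with DMSO (-0.45). Both CAVIN4 values lay inside the ranges of the colon epithelial markers given above. CAVIN1, the coat protein needed for caveolae, was at 8.23 with LXR623 and 8.48 with DMSO (-0.25). Among further sterol carriers, NPC1L1, the intestinal relative of NPC1, was at 4.0 with LXR623 and 3.45 with DMSO (0.56), a dim gene close to the filter. SCARB1, the receptor for high-density lipoprotein, was at 7.46 with LXR623 and 7.17 with DMSO (0.29), and TSPO, a mitochondrial cholesterol-binding protein, at 7.10 with LXR623 and 6.99 with DMSO (0.11).

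**Figure D5:**
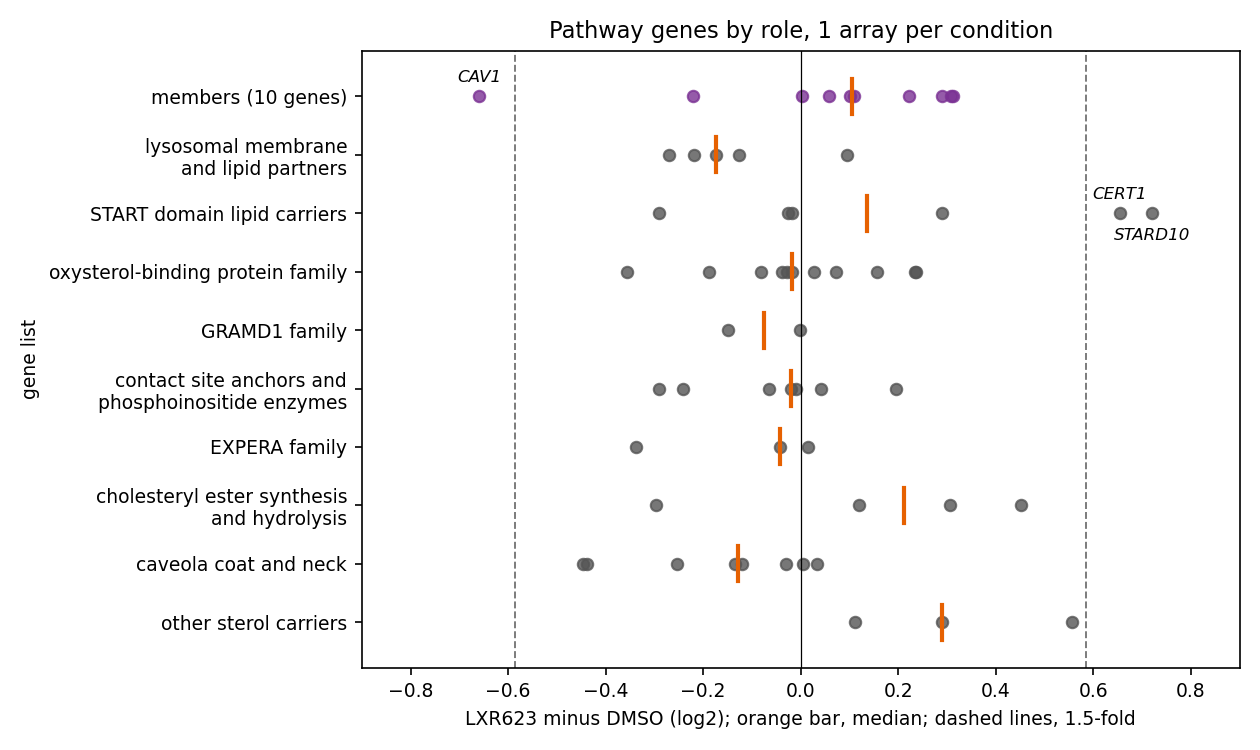
LXR623 minus DMSO (log2, horizontal axis) of the 10 members and of the 49 kept genes of 9 pathway lists, 1 point per gene, with orange bars at list medians and dashed lines at 1.5-fold. CAV1 at -0.66, CERT1 at 0.65 and STARD10 at 0.72 are the points past 1.5-fold.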

How the data were processed

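Total RNA of U87 cells, 1 array for LXR623 and 1 for DMSO, was labelled with a whole-transcript kit for Affymetrix arrays. The deposited log2 values were made by the authors with RMA (affy 1.36.1 in R 2.15.1), which quantile-normalises the arrays, so a shift shared by most genes is removed, and compresses differences of dim genes. The genome build was not given in the sources used here. Depth does not apply to arrays, and their number limits the precision.

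The table held 23786 probe sets, of which 22458 had 1 gene symbol in the platform annotation and 1328 none. No gene had several sets. Named genes with a mean over both arrays at or above the 25th percentile of all sets (3.39) were kept. Differences were taken per gene with Python 3.11.15, numpy 2.4.6 and pandas 2.3.3, and drawn with matplotlib 3.10.9. With 1 array per group there is no test. As a description, each difference was set beside the 500 kept genes nearest in mean level. Counting was tested on simulated data. Other settings were median centring, a lowess trend (span 0.3, statsmodels 0.14.6), other level filters and a 2-fold threshold.

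The members and the gene lists were chosen with earlier results of these data known. Named in the text were the 10 members, pathway genes past 1.5-fold, up to 3 per list that differed most in absolute size, and context genes. Promoters were searched for all 10 members, but those printed were picked with the differences known, for the reasons given beside them. NPC2, LIPA and SOAT1 also held a searched motif, and their promoters are not printed. Listed genes with no named probe set were not analysed here.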

Additional observations from a re-analysis of the deposited data

How the results depend on the processing

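Members' counts were the same under both scalings and both other level filters, 0 higher and 1 lower at 1.5-fold. Pathway genes 1.5-fold higher were 3 without the level filter, with STAR added, and 2 under the other level filter and both scalings. At 2-fold, members lower were 0 and pathway genes higher were 0, as CAV1 (1.58-fold lower), CERT1 (1.57-fold higher) and STARD10 (1.65-fold higher) did not reach it. Over all kept genes, 402 were 1.5-fold higher and 339 lower (54.3% higher), against 319 and 427 with arrays centred on their medians (42.8%) and 366 and 373 after the lowess correction (49.5%). The filter at the 50th percentile left 218 higher and 218 lower among 11365 genes, as fewer genes entered, and the 2-fold threshold left 57 higher and 28 lower. The members' median was 0.065 with centring (all kept genes -0.040), 0.14 after lowess, 0.052 as a mean and 0.11 without CAV1. The side of 0 was unchanged for 9 members under both scalings, and GRAMD1A was the exception. No paired analysis was possible because there was 1 array per condition. Signal over background was not analysed here, and dim genes limit what the arrays resolve.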
